A study of Sus scrofa with 10 samples.

Results

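Genes that encode vascular growth factor receptors, their ligands and endothelial junction proteins were followed through 10 single-cell libraries of the developing and adult pig medial entorhinal cortex. The members were chosen by name: the receptors KDR, FLT1 and PDGFRB, the ligands VEGFA and PDGFB, and the endothelial membrane proteins PECAM1 and CLDN5. Of these 7 genes, 6 were in the count files, which held 22452 genes, and CLDN5 was not analysed here.

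Cells from papain-dissociated fresh tissue were captured at E50 (1 library from 3 pooled fetal brains), E60 (3 libraries from 1, 1 and 2 brains) and E70 (3 libraries from 2, 1 and 1 brains), and from 1 adult brain. Nuclei were sorted from snap-frozen tissue of 1 E70 brain and 1 adult brain, which gave 1 library each. The fetuses were crossbred pigs of both sexes, from Danish Landrace and Yorkshire sows crossed with Duroc boars. No treatment or genetic modification is described. For the adult libraries the study's methods name sows killed for another study, while its results give a postnatal age in days. Together the libraries held 28229 cells, with a median of 690 unique molecular identifiers (UMIs, each a counted RNA molecule) per adult nucleus, 2616 per E70 nucleus and 4251 to 9403 per whole cell. Levels are given as CPM, the gene's UMIs scaled to a fixed total of UMIs over all cells of a class in a library (counts per 1e+06), and a bracket gives an exact 95% interval that covers counting error only.

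Vascular endothelial growth factor A (VEGFA) is secreted by cells of the tissue and acts on endothelial cells, which line blood vessels. KDR is its main signalling receptor, while FLT1 binds the same ligand with high affinity and often acts as a decoy. Platelet-derived growth factor B (PDGFB) is released by endothelial cells and is received through PDGFRB by mural cells, the pericytes and smooth muscle cells wrapped around the vessel. PECAM1 is an adhesion protein of endothelial cells that is also present on blood cells.

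Cells were clustered without the members and without the marker and pathway genes, and each cluster was named only from marker lists that did not hold the members. Endothelial-like cells (1481 cells, 2 clusters) had all 13 endothelial markers above the remaining cells, with a summed level of 3255 CPM against 235 CPM. Mural-like cells (341 cells, 1 cluster) had 10 of 11 mural markers above the remaining cells, and CNN1 at 0. Cluster 23 (468 cells) scored high on both lists, highest on the endothelial one, and stayed unnamed, since markers of another list led it. Its leading genes were RGS5, FABP4, HIGD1B, ITGA1 and PCDH18, of which RGS5 and HIGD1B are on the mural list. Its cells held a median of 15645 UMIs. Clusters 44 and 45 (281 cells) scored highest on the retinal progenitor list, with all 6 of its markers and 6 of the 7 photoreceptor markers in the files above the remaining cells, which goes against the labelled tissue, the entorhinal cortex. They are given by number, since photoreceptor genes led cluster 44.

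The libraries differed in how many vascular cells they held, and in other cell types. Excitatory neuron-like cells numbered 1, 1 and 1214 in E60 replicates 1 to 3, and midbrain or hindbrain-like cells 564, 85 and 5. Endothelial-like cells made up 20.1% and 6.58% of E60 replicates 2 and 1, 9.50% of the adult whole cells and between 0.118% and 1.62% of the other 7 libraries. E60 replicate 1 had 12.4% of its cells called as doublets, against 0% to 2.72% in the other libraries, and 31.2% of the cells of endothelial-like cluster 32 were called. Across libraries 455 pairs of cells shared a barcode, against 449 expected from the size of the barcode list.

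The genome sequence before 3 of the endothelial genes is shown because their levels moved together over cell types in the results that follow. In Sscrofa11.1, by the RefSeq annotation, KDR lies at chr8:41809116-41856379 on the minus strand, FLT1 at chr11:5620698-5797095 on the minus strand, PECAM1 at chr12:14667643-14723296 on the plus strand, PDGFRB at chr2:151155753-151192818 on the minus strand and VEGFA at chr7:38746393-38762282 on the plus strand. The windows span 250 bases before to 50 bases after the annotated gene start, which are chr8:41856330-41856629 for KDR, chr11:5797046-5797345 for FLT1 and chr12:14667393-14667692 for PECAM1, written 5′ to 3′ on the strand of the gene. Capitals mark GGAA or its reverse complement TTCC, the core that ETS transcription factors read.
KDR: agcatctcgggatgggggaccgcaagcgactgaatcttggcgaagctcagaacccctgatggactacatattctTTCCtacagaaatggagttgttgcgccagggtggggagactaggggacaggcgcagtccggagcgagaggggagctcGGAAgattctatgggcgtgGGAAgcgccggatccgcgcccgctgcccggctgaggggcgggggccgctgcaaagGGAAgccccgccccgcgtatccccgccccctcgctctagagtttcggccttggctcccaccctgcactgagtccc
FLT1: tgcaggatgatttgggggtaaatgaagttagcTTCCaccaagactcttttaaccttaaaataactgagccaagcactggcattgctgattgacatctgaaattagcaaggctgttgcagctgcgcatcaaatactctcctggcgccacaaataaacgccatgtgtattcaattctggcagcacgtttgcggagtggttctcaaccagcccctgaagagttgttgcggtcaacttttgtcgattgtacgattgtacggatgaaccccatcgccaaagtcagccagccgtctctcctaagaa
PECAM1: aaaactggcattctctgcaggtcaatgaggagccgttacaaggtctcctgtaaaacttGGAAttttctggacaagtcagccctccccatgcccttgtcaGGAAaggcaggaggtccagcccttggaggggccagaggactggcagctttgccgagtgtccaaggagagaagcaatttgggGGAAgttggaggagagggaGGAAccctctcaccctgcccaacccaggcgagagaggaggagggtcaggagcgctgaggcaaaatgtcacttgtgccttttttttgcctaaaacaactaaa
KDR held 4 copies of this core, FLT1 held 1 and PECAM1 held 4, while 95.08% of 19531 protein-coding promoters of the same length held at least 1 and the median promoter held 3. The GC box GGGCGG occurred 3 times before KDR and not before FLT1 or PECAM1, and 50.61% of promoters held it. ACGTG, the core of the hypoxia response element, occurred once before FLT1 and was in 22.28% of promoters, and it was not in the windows of KDR, PECAM1, PDGFRB or VEGFA. GATA, the core of GATA factors, occurred once before KDR and PDGFRB, 2 times before VEGFA and not before FLT1 or PECAM1, and was in 47.4% of promoters. Each motif was searched on both strands. PECAM1 overlaps an antisense long non-coding RNA in this annotation, and reads of the pair cannot be told apart where counting did not use strand.

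Among the named classes, KDR, FLT1, PECAM1 and PDGFB were highest in endothelial-like cells in each library with at least 10 of them. KDR reached 271 CPM at E50, 386, 383 and 428 CPM in E60 replicates 1 to 3, 291 and 387 CPM in E70 replicates 2 and 3, and 80.8 CPM in the adult. The 6 fetal libraries lay close together and the adult library lay below all of them. E70 replicate 1 held only 4 endothelial-like cells, with 16 KDR UMIs, and the nuclei held 9 (E70) and 3 (adult), so these endothelial-like levels entered no comparison.

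FLT1 reached 907 CPM at E50, 963, 1084 and 1357 CPM at E60, 849 and 1400 CPM at E70 and 1001 CPM in the adult. Here the adult library lay inside the fetal range. PECAM1 reached 804 CPM at E50, 535, 566 and 1152 CPM at E60, 429 and 1408 CPM at E70 and 334 CPM in the adult. Replicate 3 of E60 and replicate 3 of E70 were the highest in PECAM1 and in FLT1, and they carry the same library number in the study's sample list. A fit of the stages with that number as a block called no member.

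PDGFB, the ligand, lay in a narrow range in the fetal endothelial-like cells: 157 CPM at E50, 162, 176 and 153 CPM at E60, and 145 and 169 CPM at E70. The adult library had 62.9 CPM and lay below that range. PDGFRB, its receptor, reached only 5.44 to 21.5 CPM in endothelial-like cells, and VEGFA 0 to 17.1 CPM.

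**Figure D1:**
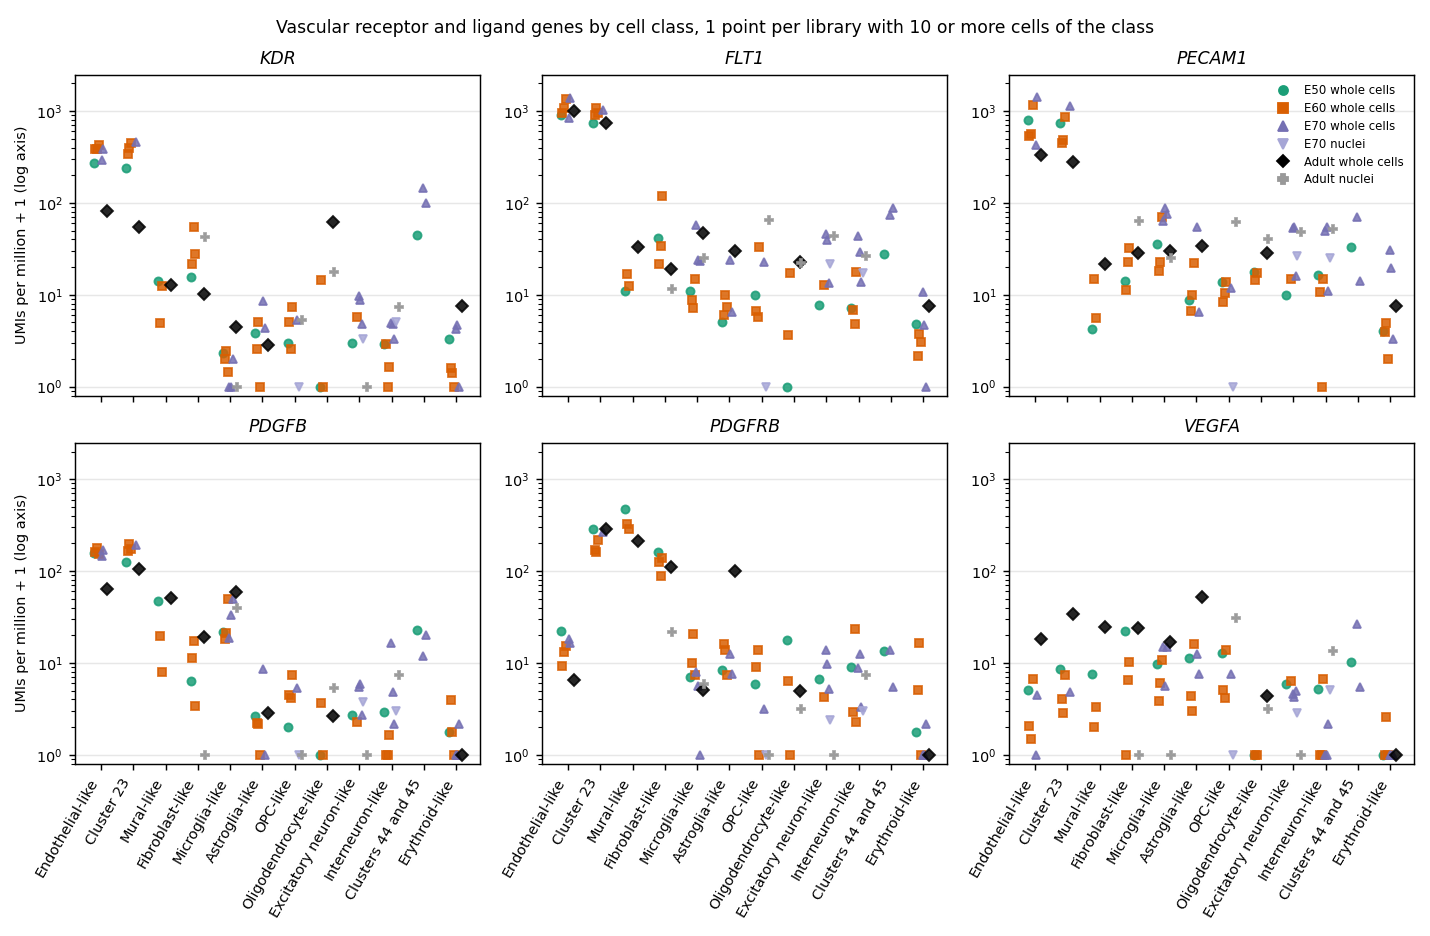
Level of each of the 6 genes (CPM + 1, log axis) in 12 cell classes, where each point is the sum of 1 library with 10 or more cells of the class and colour and shape give the stage and preparation. KDR, FLT1, PECAM1 and PDGFB peak in endothelial-like cells and in cluster 23, PDGFRB peaks in mural-like cells and cluster 23, and VEGFA stays below 60 CPM everywhere.

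Over all libraries, 1259 of 1481 endothelial-like cells held a KDR UMI [83.1% to 86.8%], 97.5% an FLT1 UMI, 93.2% a PECAM1 UMI and 68.8% a PDGFB UMI. The same shares were 0.694% for KDR in microglia-like cells, and 8.19% for FLT1, 9.98% for PECAM1 and 1.51% for PDGFB in interneuron-like cells, the classes used as background. Median depth was 8293 UMIs per endothelial-like cell, 5096 per microglia-like cell and 5642 per interneuron-like cell. With every cell drawn down to 1000 UMIs, the endothelial shares were 28.8%, 59.9%, 40.4% and 13.3%, and the background shares were 0.175% for KDR, 1.39% for FLT1, 1.74% for PECAM1 and 0.209% for PDGFB.

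Endothelial-like cells were compared with non-vascular cells of the same library in 7 libraries, which leave out every cluster that scored highest on the endothelial or mural list and the fibroblast-like and erythroid-like cells, by edgeR's quasi-likelihood test on summed counts with the library as a block and Benjamini-Hochberg adjustment. Of 14314 genes tested, 51.8% were called at an adjusted p under 0.05, with 18.6% higher and 33.1% lower in endothelial-like cells, and 57.7% had an unadjusted p under 0.05. Among the members, 4 of 6 were higher. KDR was higher by 6.06 (log2, SE 0.61, adjusted p = 8.62e-06), FLT1 by 6.42 (SE 0.37, adjusted p = 1.80e-07), PECAM1 by 5.26 (SE 0.44, adjusted p = 2.60e-06) and PDGFB by 4.53 (SE 0.37, adjusted p = 2.26e-06). PDGFRB had a log2 difference of -0.16 (SE 0.31, adjusted p = 0.693) and VEGFA of -0.87 (SE 0.44, adjusted p = 0.114), and neither was called. With clusters made without batch correction PDGFRB came out higher, by 2.54 (adjusted p = 0.00119), and without the adult library VEGFA came out lower, with a log2 difference of -1.13 (adjusted p = 0.0427).

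PDGFB was higher in endothelial-like cells and its receptor PDGFRB in mural-like cells. In the 4 libraries with at least 10 cells of both, all 5 members tested were called by the same test, where 23.9% of 10296 genes were called (12.4% higher and 11.5% lower in endothelial-like cells, 36.7% at an unadjusted p under 0.05). PDGFRB was lower in endothelial-like cells by 4.78 (log2 difference -4.78, SE 0.25, adjusted p = 2.82e-05). KDR was higher by 5.04 (SE 0.50), FLT1 by 5.97 (SE 0.32) and PECAM1 by 5.69 (SE 0.48), all called. PDGFB was higher by 2.38 (SE 0.55, adjusted p = 0.0156), but that call was lost when E50, E60 replicate 1 or E60 replicate 2 was left out, with an adjusted p of 0.0580, 0.107 and 0.0506. VEGFA was too low to be tested.

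PDGFRB reached 475 CPM at E50, 326 and 287 CPM in E60 replicates 1 and 2, and 213 CPM in the adult among mural-like cells. No E70 library held 10 mural-like cells, so the stages were not compared in them. Against the non-vascular cells of the same 4 libraries, PDGFRB was higher by 4.32 (edgeR, SE 0.28, adjusted p = 9.34e-05), where 10% of 12786 genes were called (5.98% higher, 4.06% lower, 25.7% at an unadjusted p under 0.05). PDGFB in mural-like cells, at 46.1 CPM (E50), 18.6 and 6.89 CPM (E60) and 49.7 CPM (adult), had a log2 difference of 1.91 (SE 0.51, adjusted p = 0.0530) and was not called, though DESeq2 called it (1.84, adjusted p = 0.0107). KDR in mural-like cells lay between 3.93 and 13.2 CPM.

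Cluster 23 carried both sides of the pair. KDR lay at 349 CPM, FLT1 at 920 CPM and PECAM1 at 616 CPM, close to the endothelial-like cells, and PDGFRB at 204 CPM. Its 6 libraries with at least 10 of these cells ranged from 161 to 289 CPM for PDGFRB and from 53.1 CPM (adult) to 460 CPM (E70 replicate 3) for KDR. A UMI of PDGFRB and one of PECAM1 occurred in the same cell in 83.3% of its cells, against 8.10% of endothelial-like, 6.16% of mural-like and 0.810% of microglia-like cells. At 1000 UMIs these shares were 7.69%, 0.203%, 0.294% and 0. The median cell of cluster 23 held 2.86 times the median UMIs of the cells' libraries, and 13.2% of its cells were called doublets. Calling differed by library. E60 replicate 1, with 12.4% of all its cells called, gave 227 of the cluster's cells. E60 replicate 2, with 0 of 3479 cells called, gave 111. Whether the barcodes of cluster 23 held more than 1 cell was not tested. The cluster contributed 32.4% of all KDR UMIs and 35.4% of all PDGFRB UMIs.

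The pathway around the members was followed in a list of 28 genes, of which 26 were in the files. Against non-vascular cells, 18 of 24 tested were higher in endothelial-like cells and 3 were lower, with a median log2 difference of 2.19 against -0.25 over all genes. Of all 14314 genes in that test, 18.6% were higher and 33.1% lower. Among receptors, TEK, which binds angiopoietins, was higher by 5.29 (SE 0.37), its partner TIE1 by 4.22 (SE 0.42), and the VEGF co-receptors NRP2 by 1.89 (SE 0.40) and NRP1 by 1.604 (SE 0.29). Among ligands, VEGFC was higher by 4.25 (SE 0.36) and the Notch ligand DLL4 by 5.24 (SE 0.24). VEGFB differed by -0.09 (SE 0.22, adjusted p = 0.768) and was not called. The lipid transporter MFSD2A was higher by 5.39 (SE 0.39), and the junction proteins OCLN and LSR by 4.49 (SE 0.48) and 4.93 (SE 0.31).

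Between endothelial-like and mural-like cells, 16 of 21 tested pathway genes were higher in endothelial-like cells and 3 were lower, with a median log2 difference of 2.00 against -0.01 over all genes. Of all 10296 genes in that test, 12.4% were higher and 11.5% lower. The lower pathway genes were the angiopoietins ANGPT1 (-2.40, SE 0.29, adjusted p = 0.000674) and ANGPT2 (-1.74, SE 0.23, adjusted p = 0.00117) and the junction protein JAM3 (-1.20, SE 0.33, adjusted p = 0.0327). Against non-vascular cells, 1 of 19 tested was called in mural-like cells, which was ANGPT2, higher by 4.66 (SE 0.25, adjusted p = 3.93e-05). Of all 12786 genes in that test, 5.98% were higher and 4.06% lower, so 1 of 19 lay near the share over all genes. ANGPT1 differed there by 0.41 (SE 0.28, adjusted p = 0.580). The platelet-derived ligands PDGFC and PDGFD were higher in endothelial-like than in mural-like cells, by 2.19 (SE 0.43) and 1.78 (SE 0.34).

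Over 113 sums of a class in a library with at least 20 cells, KDR was most like CDH5 (Pearson r = 0.91), FLT1 (r = 0.91) and CAVIN2 (r = 0.89) among 12985 genes, on log2(CPM + 10). FLT1 was most like SHE, PECAM1 and ERG (r = 0.94, 0.94 and 0.93), and PECAM1 was most like FLT1, RASGRP3 and NOTCH4 (r = 0.94, 0.92 and 0.91). PDGFB was most like ARAP3, ADCY4 and PLXND1 (r = 0.91, 0.91 and 0.90), and PDGFRB was most like CD248, COL6A1 and NOTCH3 (r = 0.84, 0.82 and 0.82). VEGFA followed no gene as closely, with RNF122 at r = 0.62, DDIT3 at 0.57 and IDUA at 0.56. Its r with its receptors KDR and FLT1 was 0.02 and 0.14. The sums share libraries and differ in depth, so these values describe the data only.

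Between E60 and E70 no member was called in endothelial-like cells (3 libraries against 2, 9095 genes, edgeR's quasi-likelihood test, 0% of all genes called and 9.73% at an unadjusted p under 0.05, DESeq2 called 0 members). The E70 minus E60 differences on the log2 scale were -0.17 for KDR (SE 0.32, adjusted p = 0.864), 0.05 for FLT1 (SE 0.36), 0.01 for PDGFB (SE 0.30) and 0.35 for PECAM1 (SE 0.60). In astroglia-like cells, the VEGFA difference was 0.89 (SE 1.12, adjusted p = 0.808), with 0% of 10041 genes called and 9.67% at an unadjusted p under 0.05.

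In sums of all cells, KDR lay at 68.5, 161 and 39.7 CPM in the E60 replicates and at 49.1, 24.03 and 31.8 CPM in the E70 replicates, and the stages overlapped. The fit over 3 against 3 libraries called 0% of 16743 genes, with 29.4% at an unadjusted p under 0.05. E70 minus E60 was -1.66 for KDR (SE 0.59, adjusted p = 0.135), -1.82 for FLT1 (SE 0.59, adjusted p = 0.126), -1.78 for PDGFB (SE 0.57, adjusted p = 0.125), -1.06 for PDGFRB (SE 0.31, adjusted p = 0.122) and -1.06 for PECAM1 (SE 0.46, adjusted p = 0.171). DESeq2 called 4 of these members and leaving out E60 replicate 3 called 5, in the same direction. The shares of all genes called in these settings were not counted, so the counts of members cannot be set against them. With E60 replicates 1 and 2 left out together, which kept 1 E60 library, KDR differed by -0.20. In such sums fewer cells of a type and less RNA per cell cannot be told apart. Stage cannot be told apart from the mix of cell types either, since E60 replicates 1 and 2 held 1 excitatory neuron-like cell each. Leaving out E60 replicate 3 kept only those E60 libraries. The endothelial-like share was 6.58%, 20.1% and 1.48% at E60 and 0.811%, 1.62% and 1.19% at E70, with p = 0.2 in a two-sided exact permutation test whose smallest p is 0.1. The mural-like share, 2.18%, 2.04% and 0.111% at E60 and 0%, 0% and 0.192% at E70, also gave an exact permutation p of 0.2.

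The adult endothelial-like cells (70 cells of 1 library) can be described against the 6 fetal libraries but not tested. KDR was 4.43-fold lower than the fetal mean of 358 CPM (SD 62.1), PDGFB 2.55-fold lower than its fetal mean of 160.2 CPM and PECAM1 2.44-fold lower than 816 CPM (SD 389), and all lay below every fetal library. PDGFRB, at 5.44 CPM (7 UMIs), did too. FLT1 stood at 1001 CPM against a fetal mean of 1093 CPM (SD 235). Of 10223 genes whose fetal mean and adult level averaged at least 10 CPM, 11.2% were lower than every fetal library and over 2-fold below their mean, and 9.41% were higher in the same way, while 4 of the 5 members at that level were lower and none was higher. VEGFA fell just under the level, with 17.1 CPM in the adult (22 UMIs) above the 0 to 5.65 CPM of the fetal libraries. In the adult 12 of 13 endothelial markers were detected, with 3619 CPM in sum, within the 2545 to 4453 CPM of the fetal libraries. Mural markers summed to 509 CPM there against 67.3 to 281 CPM in the fetal libraries, and their part in the result was not tested. In adult mural-like cells (52 cells), FLT1 (32.1 CPM, 11 UMIs), VEGFA (23.4 CPM, 8 UMIs), PDGFB (49.7 CPM, 17 UMIs) and PECAM1 (20.5 CPM, 7 UMIs) were higher than the 3 fetal libraries by this rule, where 22.5% of 10360 genes were higher and 21.2% lower.

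Of the pathway list, 21 genes reached that level in endothelial-like cells. By the same rule 6 of these were lower in the adult and none was higher, against 11.2% and 9.41% of 10223 genes. The 6 lower ones were the co-receptors NRP1 (105 CPM against 184 to 376 CPM) and NRP2 (31.1 against 57.1 to 470 CPM), the ligands VEGFC (40.4 against 86.6 to 398 CPM) and PDGFD (53.6 against 240 to 336 CPM), PLVAP, a protein of the diaphragms of permeable vessels (23.3 against 117 to 402 CPM), and JAM3 (26.4 against 42.3 to 83.1 CPM). MFSD2A, OCLN, LSR and DLL4 were not past the rule.

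**Figure D2:**
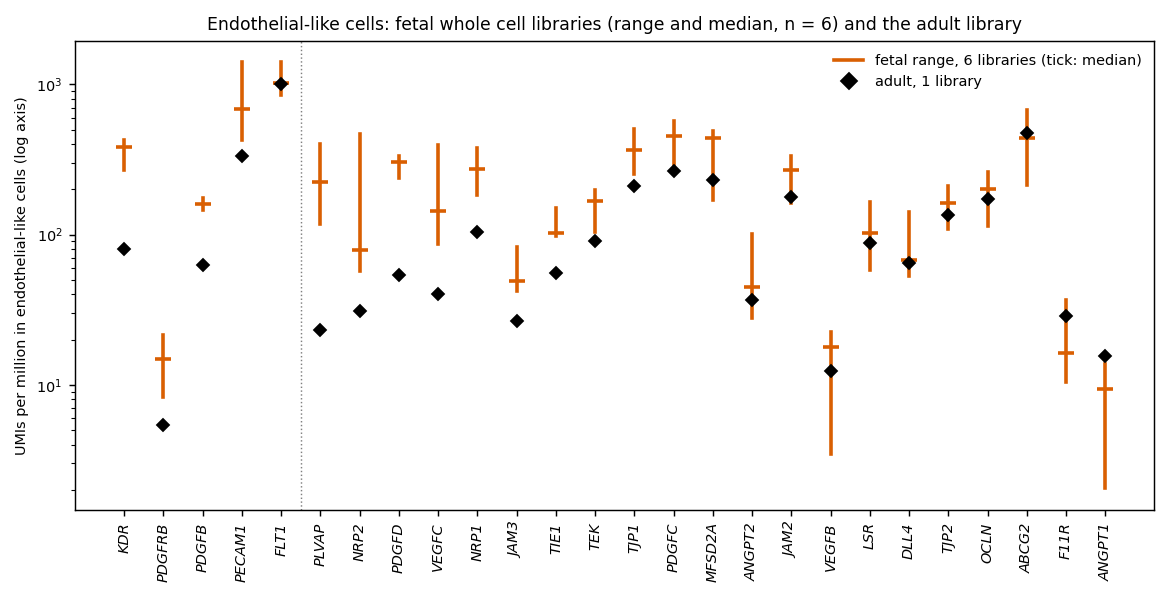
Level in endothelial-like cells (CPM, log axis) of the members, left of the dotted line, and of the pathway genes that reached 10 CPM. Orange bars give the range and median of the 6 fetal whole cell libraries and black diamonds the 1 adult library. KDR at 80.8 CPM and PDGFB at 62.9 CPM lie below the fetal bars, while FLT1 at 1001 CPM lies within its bar.

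KDR was also counted outside endothelium. Microglia-like cells, its background, had 0 to 3.41 CPM in 9 libraries (19 UMIs in 2592 cells). Clusters 44 and 45 together had 43.2 CPM [32.3 to 56.7] at E50 (52 UMIs, 147 cells), 146 CPM in E70 replicate 1 (161 UMIs, 32 cells) and 98.3 CPM in E70 replicate 3 (67 UMIs, 99 cells). All 3 libraries lay above every microglia-like value. Cluster 45, led by CLRN1, RLBP1, TAGLN, SIX6 and CCND1, had 57.3 CPM at E50 (93 cells) and 297 CPM in E70 replicate 3 (34 cells), so its level over all libraries, 110 CPM, hides a wide spread. Cluster 44, led by RCVRN, GNB3, PRPH2, SIX6 and SAG, had 18.4 CPM at E50 and 18.5 CPM in E70 replicate 3, and its 85.3 CPM over all libraries came mostly from 30 cells of E70 replicate 1 (143 CPM, 155 of 172 UMIs). RLBP1 is a retinoid-binding protein of retinal glia and RCVRN, PRPH2 and SAG are photoreceptor proteins. KDR was not the only member counted there. In cluster 45 of E70 replicate 3, FLT1 had 267 CPM (52 UMIs), and 23 of 34 cells held it, as for KDR. PECAM1 had 3 UMIs in those cells. FLT1 lay further below KDR in cluster 45 at E50 (29.95 CPM) and in cluster 44 of E70 replicate 1 (69.96 CPM). Over all libraries FLT1 had 57.1 CPM in both clusters together, against 14.6 CPM in interneuron-like cells.

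A few deep cells weighed on E70 replicate 1, where the top cell held 44 KDR UMIs among 230571. Without the 3 highest cells of each library, KDR in these clusters was 35.8 CPM at E50, 105 CPM in E70 replicate 1 and 73.8 CPM in E70 replicate 3. KDR was detected in 24.5%, 56.2% and 29.3% of the cells of clusters 44 and 45 in these libraries. Their endothelial markers summed to 48.2, 170 and 71.9 CPM, with 9, 10 and 8 of the 13 detected. At E50, these markers stood at 46.9 CPM in the cells with KDR and at 48.8 CPM in those without, in E70 replicate 1 at 165 and 253 CPM, and in E70 replicate 3 at 84.4 and 66.6 CPM. Depth differed in E70 replicate 1, with a median of 21499 UMIs in the cells with KDR and 3863 in those without. Its 253 CPM rested on 16 UMIs in 14 cells.

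Oligodendrocyte-like cells of the adult, the myelin-forming cells, had 60.4 CPM of KDR [49.6 to 72.9] (109 UMIs), and 42.1% of the 197 cells held a UMI, 24 of them at least 2. This lay near the adult endothelial-like level of 80.8 CPM. The other adult whole cells outside the endothelial list had 5.68 CPM [3.56 to 8.60], so the intervals did not overlap. No cell held more than 3 KDR UMIs, and the endothelial markers stood at 110 CPM in the cells with KDR and at 138 CPM in those without. All 5 oligodendrocyte markers in the files were above the rest, and summed to 15402 CPM in the cells with KDR. The E60 replicate 1 oligodendrocyte-like cells had 13.4 CPM from 5 UMIs in 84 cells, and those of E50 and E60 replicate 2 had no KDR UMI in 12 and 13 cells. Precursor-like (OPC-like) cells had 0 to 6.4 CPM.

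The proportion of KDR to FLT1 and PECAM1 is described for sums with at least 20 UMIs of that pair, with no test. The oligodendrocyte-like cells of E50 and E60 replicate 2 held only 2 such UMIs each, with no KDR. In the adult, KDR made 0.0605 times the summed FLT1 and PECAM1 UMIs in endothelial-like cells, 0.0450 times in microglia-like cells, and 1.22 times in oligodendrocyte-like cells. In the adult nuclei the oligodendrocyte-like ratio was lower, 0.274, from 23 KDR UMIs. In clusters 44 and 45 the ratio was 0.732 at E50 and 0.985 in E70 replicate 3, against 0.158 and 0.138 in the endothelial-like cells of those libraries, and 1.03 in E70 replicate 1. The pair was mostly FLT1 in those clusters of E70 replicate 3, with 59 FLT1 and 9 PECAM1 UMIs beside 67 of KDR. At E50 it held 32 FLT1 and 39 PECAM1 UMIs, and in E70 replicate 1 it held 80 and 77. Excitatory neuron-like cells had 0.0490 to 0.183 in the 6 libraries with any KDR.

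Over all cells outside the clusters of the endothelial list (endothelial-like clusters 7 and 32 and unnamed clusters 23 and 49), the ratio did not move in 1 direction. It was lower than in endothelial-like cells in 4 libraries and higher in 3, with a mean log2 difference of 0.01 (SD 1.38, n = 7, two-sided exact permutation test by sign changes, p = 1.0, smallest possible p 0.0156). The adult was the most different, higher by 2.66, and without it the mean was -0.43 (exact permutation p = 0.281). With clusters 23 and 49 counted among the other cells, an alternative added after seeing the data, the mean was 0.27 (exact permutation p = 0.5).

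**Figure D3:**
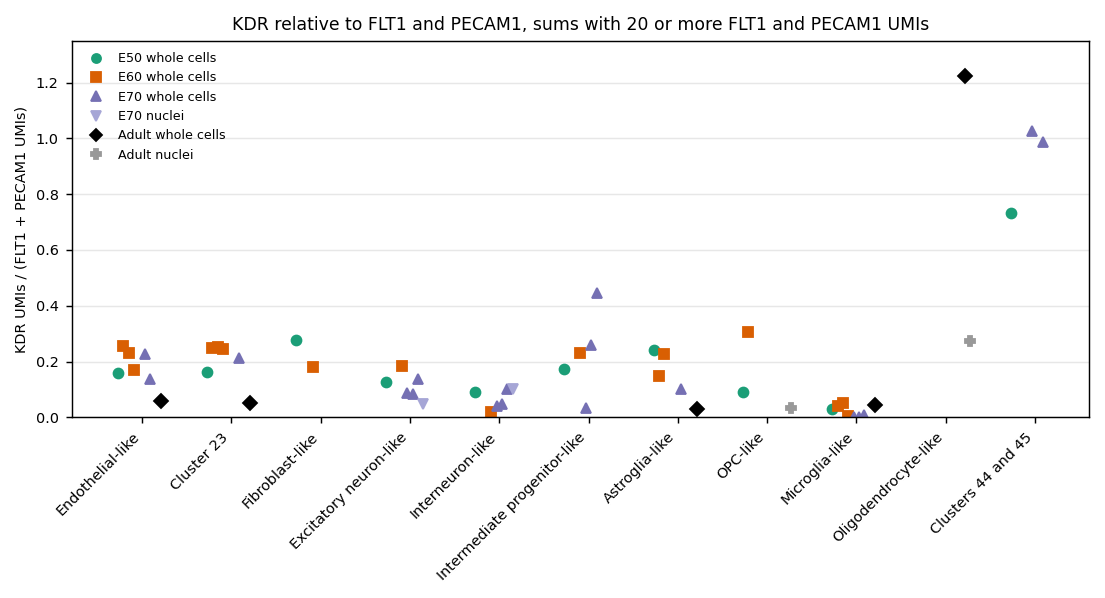
Ratio of KDR UMIs to the sum of FLT1 and PECAM1 UMIs by cell class, with 1 point per library whose class held 20 or more FLT1 and PECAM1 UMIs. Endothelial-like sums lie between 0.0605 and 0.258, the adult oligodendrocyte-like sums at 1.22 (whole cells) and 0.274 (nuclei) and the sums of clusters 44 and 45 between 0.732 and 1.03.

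Fibroblast-like cells (443 cells of cluster 25, led by COL1A1, COL1A2, CRABP2, IGFBP6 and a gene without a symbol) had KDR at 14.8 CPM (E50), 20.8, 54.3 and 26.8 CPM (E60), 9.15 CPM (adult) and 41.9 CPM (adult nuclei), the last from 4 UMIs. FLT1 reached 118 CPM in those of E60 replicate 3. Their KDR ratio was above that of the endothelial-like cells in the 5 libraries with both, by little in E60 replicate 3 (0.180 against 0.171) and more at E50 (0.278 against 0.158), while the others rested on 2 to 10 KDR UMIs.

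**Figure D4:**
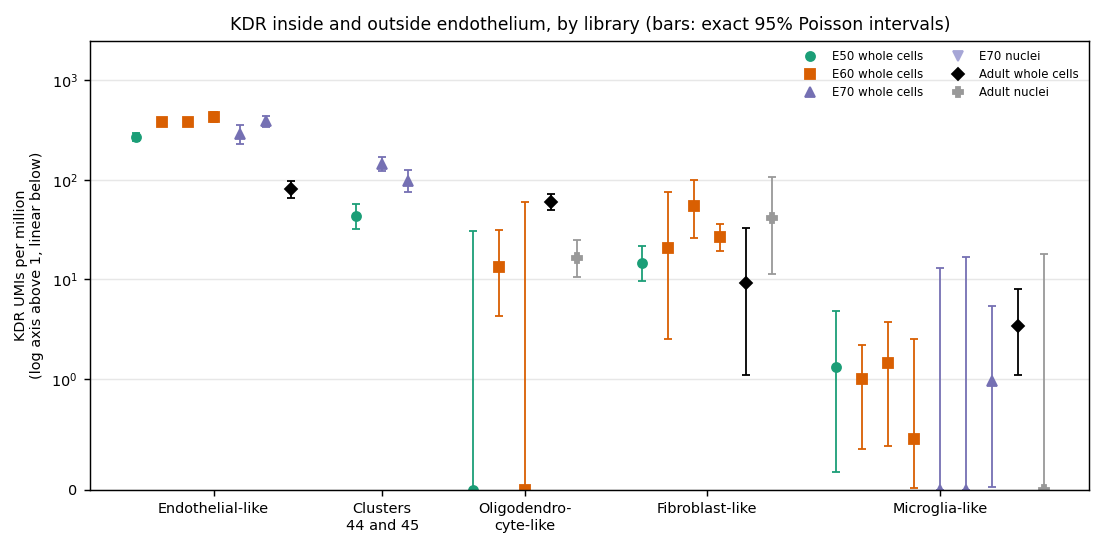
KDR level in CPM (log axis above 1, linear below) in 5 cell classes, where each point is 1 library and bars are exact 95% Poisson intervals. The sums of clusters 44 and 45, from 43.2 to 146 CPM, and the adult oligodendrocyte-like sum, 60.4 CPM, lie above the microglia-like sums, which reach 3.41 CPM.

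By the rule of 3 times the microglia-like level, 19 clusters of at least 50 cells held KDR. Beside those above these were endothelial-like cluster 7 (366 CPM, led by APOA1, MED15, ITM2A, CD93 and CA4) and cluster 32 (283 CPM, led by ITM2A, MED15, ISG12(A), CD93 and ECSCR), and unnamed cluster 49 (248 CPM), whose leading genes SLC4A1, HBM, ITM2A, RARRES2 and one without a symbol mix red cell and endothelial genes. Oligodendrocyte-like cells formed cluster 34 (48.1 CPM, led by ERMN, MAG, MBP, TF and PPP1R14A), cluster 1 (17.7 CPM, led by OPALIN, TF, PLEKHH1, ST18 and a gene without a symbol) and cluster 41 (13.4 CPM, led by OPALIN, TF, GRP, PLEKHH1 and a gene without a symbol). The mural-like cluster 31 (led by ACTA2, ITIH4, TPM2, TAGLN and RGS5) had 8.99 CPM.

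The rest lay between 4.08 and 8.29 CPM, within a few CPM of the background. They were granule-like clusters 33 (led by SCT, NPTX1, HSD11B2, SP5 and a gene without a symbol) and 36 (CBLN1, SCT, NEUROD1, ZIC4, KCNJ6), intermediate progenitor-like clusters 15 (EOMES, NEUROD4, NRN1, IGFBPL1, HES6) and 29 (HIST1H2AB, CENPF, TOP2A, TK1, AURKB) and unnamed clusters 24 (SLCO1C1, RYR3, FGL2, ABI3BP and a gene without a symbol) and 39. The remaining ones were excitatory neuron-like clusters 2 (SEMA3C, SLC44A5, SLC7A14, CXorf57, KCNQ3) and 0.

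PDGFRB was counted outside mural cells in fibroblast-like cells, at 158 CPM (E50), 125, 86.9 and 136 CPM (E60) and 110 CPM (adult). These cells shared it broadly, since 102 of the 131 fibroblast-like cells of E50 held a UMI. The microglia-like background was 0 to 19.5 CPM.

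A few single cells of E50 set the PDGFRB level of other classes. Purkinje-like cells of E50 had 57.0 CPM, but 54 and 41 of the 109 UMIs lay in 2 of 167 cells, and without the 3 highest cells the level was 5.87 CPM. Unnamed clusters 35, 24 and 16 at E50 went from 65.6, 58.9 and 38.0 CPM to 14.5, 18.5 and 3.83 CPM in the same way. In E60 replicate 3, cluster 24 had 53.7 CPM over 50 of 140 cells, and 40.2 CPM without its 3 highest cells.

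Adult astroglia-like cells (astrocytes and radial glia, 57 cells) had 99.7 CPM of PDGFRB [75.1 to 129.8], with a UMI in 52.6% of cells, against 6.42 to 14.9 CPM in the 6 fetal libraries. No test is possible with 1 adult library, and 19.7% of 10886 genes were higher than every fetal library and over 2-fold above their mean in this class (14.2% were lower). No cell held more than 6 UMIs, and without the 3 highest cells the level was 81.8 CPM. Their mural markers summed to 181 CPM against 77.8 to 126 CPM in the fetal libraries. PDGFRB made 0.55 times that sum, against 0.0152 times in adult mural-like cells, 0.131 in adult cluster 23 and 0.293 in adult fibroblast-like cells. Fetal fibroblast-like cells had 0.316 to 0.810. What set the ratio was not tested.

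VEGFA, the ligand, was low in every class. Fetal astroglia-like cells had 10.2 CPM at E50, 3.32, 2.03 and 14.97 CPM at E60 and 11.5 and 6.62 CPM at E70, and the adult had 50.8 CPM [33.7 to 73.4] from 28 UMIs. The adult value lay above every fetal library. Erythroid-like cells, the background for VEGFA, held 4 UMIs in 1635 cells. In the adult whole cells the next levels were cluster 23 (33.2 CPM, 10 UMIs), ependymal-like (28.5 CPM, 15 UMIs), mural-like (23.4 CPM, 8 UMIs), fibroblast-like (22.9 CPM, 5 UMIs) and endothelial-like cells (17.1 CPM [10.7 to 25.9], 22 UMIs). OPC-like nuclei of the adult had 30.2 CPM from 7 UMIs.

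Beside VEGFA, 13 genes known to respond to low oxygen were summed. In astroglia-like cells they gave 992 to 1531 CPM in the fetal libraries and 903 CPM in the adult, so the adult sum lay below the fetal range while VEGFA lay above it. Of the 8 that reached 10 CPM in this class, PFKFB3 (52.6 CPM against 7.81 to 19.2 CPM) and NDRG1 (36.3 against 8.39 to 23.2 CPM) were higher in the adult by the rule above, and LDHA (10.9 against 103 to 260 CPM) was lower. By that rule 19.7% of 10886 genes were higher and 14.2% lower in this class, so 2 and 1 of 8 lay near those shares. The adult astroglia-like cells also held more endothelial markers than any fetal library, 239 CPM with 10 of 13 detected, against 37.4 to 130 CPM. Of the 4 members at the level of 10 CPM in this class, 3 were higher in the adult by that rule and none was lower. Beside VEGFA and PDGFRB this was FLT1, from 16 UMIs in 57 cells. The part of the endothelial markers in these adult levels was not tested.

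PDGFB was not limited to endothelium, while PECAM1 outside endothelium was harder to set apart from its background. Microglia-like cells, the brain's immune cells, had PDGFB at 20.6 CPM (E50), 17.3, 20.2 and 48.5 CPM (E60), 17.6, 32.1 and 49.0 CPM (E70) and 58.7 CPM (adult), so that the adult microglia-like and endothelial-like (62.9 CPM) levels were close. By the rule above, PDGFB was the member that was higher in adult than in fetal microglia-like cells, just past 2-fold over a fetal mean of 29.3 CPM, where 10.2% of 10659 genes were higher and 4.66% lower. KDR, under the level, had 3.41 CPM in the adult (5 UMIs) and 0 to 1.45 CPM in the fetal libraries. PDGFB in interneuron-like cells, its background, was 2.55 CPM over all libraries. PECAM1 in microglia-like cells ranged from 17.3 to 87.0 CPM, while in interneuron-like cells it was 19.9 CPM over all libraries. KDR stayed at or below 3.41 CPM in microglia-like cells.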

How the data were processed

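Counts of UMIs per gene and cell were deposited by the authors for each library. Per the study's methods, 10X Genomics 3' version 2 reads were mapped with Cell Ranger to Sscrofa11.1, introns included. The submitters' processing notes give its version as 2.20, which the methods write differently. Members and gene lists were chosen with earlier results of these data known. Rows without a symbol were matched through a gene name table.

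Cells were clustered (scanpy 1.11.5) on 3000 variable genes after mutual nearest neighbour correction between libraries, leaving out the 178 listed genes, which gave 51 clusters. Names needed at least 3 detected markers. Doublets were called with Scrublet and kept. Counts were summed per library and class with at least 10 cells, and tested with edgeR 4.0.16 (quasi-likelihood, TMM, Benjamini-Hochberg), and DESeq2 1.42.0 as an alternative, after a test on simulated data. CLDN5 was left out of the planned KDR ratio. Replicates of a stage are separate libraries, so p-values measure the spread between these. Genes were named by the members, the pathway and hypoxia lists, the 3 most alike genes per member, and clusters with KDR over 3 times its microglia-like level. Same-numbered E60 and E70 libraries had r of -0.11, 0.06 and -0.02 between their deviations over 10970 genes in whole libraries, and of 0.033, 0.23 and 0.17 over 10189 genes in endothelial-like cells, where replicate 1 of E70 held 4 cells. Not every pair passed 0.1, so numbers were not taken as pairs. The leading genes of clusters 39 and 0 are not reported here.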

Additional observations from a re-analysis of the deposited data

Results flagged for a closer look

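KDR was also counted at a low level in a library that none of the tests used. The oligodendrocyte-like nuclei of the adult brain held 23 KDR UMIs in 1725 nuclei, or 16.6 CPM [10.5 to 24.9], with 1 UMI in each of 23 nuclei. The other nuclei of that library outside the endothelial list had 6 UMIs in 824 nuclei, or 6.33 CPM [2.32 to 13.8], and its microglia-like nuclei had none in 320, which allows up to 14.6 CPM at 3 counts, with an exact interval that reaches 17.9 CPM. The intervals overlapped, and the share of nuclei with a UMI was 1.33% against 0.728% at a median of 669 UMIs per oligodendrocyte-like nucleus. KDR was not the highest member there, since all oligodendrocyte-like nuclei together held 29 FLT1 and 55 PECAM1 UMIs. The endothelial markers stood at 47.4 CPM (1 UMI) in the oligodendrocyte-like nuclei with KDR and at 141 CPM (193 UMIs) in those without. The KDR difference between these nuclei and the others was not tested, as 1 library holds all adult nuclei.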

How the results depend on the processing

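In endothelial-like against non-vascular cells, KDR, FLT1, PECAM1 and PDGFB were called in all 15 alternatives. PDGFRB there changed sign, to 2.54 with clusters made without batch correction, to 0.36 without E60 replicates 1 and 2 (an alternative added after seeing the data) and over -0.34 to 0.15 when 1 library was left out. In mural-like against non-vascular cells, 2 members were called with DESeq2, with no filter on low counts and with no batch correction, PDGFB being the added one, and VEGFA ranged from -0.55 to 0.38 with 1 library left out. For whole libraries of E60 and E70, DESeq2 called 4 members, leaving out 1 library called 0 to 5, and VEGFA was -0.38 without E60 replicates 1 and 2. The share of all genes called was counted for the main fits only, not for the alternatives. Of the uncalled E70 minus E60 differences in endothelial-like cells, those of FLT1, PDGFB and PECAM1 changed sign, and those of KDR (12 alternatives) and PDGFRB (10) did not. FLT1 and PDGFB were -0.12 and -0.19 with no filter, FLT1 and PECAM1 were -0.26 and -0.31 without E60 replicates 1 and 2. With the unnamed endothelial clusters added after seeing the data FLT1, PDGFB and PECAM1 were -0.24, -0.14 and -0.020, and with replicate 3 of both stages left out, also added then, -0.34, -0.28 and -0.42. With 1 library left out they ranged from -0.45 to 0.28, from -0.22 to 0.059 and from -0.83 to 0.90, and PECAM1 in astroglia-like cells from -0.84 to 2.45.

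The replicate block called 0 members in any E60 and E70 comparison (whole libraries, KDR -1.33, adjusted p = 0.274, edgeR). With the block FLT1 and PDGFB in endothelial-like cells were -0.10 and -0.012, and PDGFRB in astroglia-like cells was 0.016. The KDR ratio, which was not past its test, became -0.56 with PECAM1 alone and -0.060 with no batch correction, and ranged from -0.43 to 0.28 with 1 library left out. Drawn down to 1000 UMIs, the shares of cells with a UMI were 28.8% (KDR), 59.9% (FLT1), 40.4% (PECAM1) and 13.3% (PDGFB) in endothelial-like cells, 25.9% for PDGFRB in mural-like, 0.493% for VEGFA in astroglia-like, and 6.81% and 4.09% for KDR in clusters 44 and 45 together and oligodendrocyte-like cells. The causes were not tested. Not run were the ratio to CLDN5 alone, mural-like E60 against E70 and class tests with nuclei, for lack of the gene or of 10 cells.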
